A study of Mus musculus with 12 samples.

Results

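Leptin and 9 further adipocyte genes were examined in whole ovaries, by taking every probe that the array annotation names for exactly 1 of them. Of the 10 genes, 8 were measured, by 9 of the 21615 probes named for a single gene, and these 8 stand among 18069 genes with such a probe. Lep, Adipoq, Retn, Fabp4, Car3, Pparg and Lpl had 1 probe each and Slc2a4 had 2, of which the brighter stands for the gene. No probe was named for Cfd or Plin1 alone, and both are not analysed here. The ovaries came from 12 female mice, 1 array per mouse and 3 mice in each of 4 groups, namely LY and black mice of 180 days and LY and black mice of 90 days of age. LY mice are the lethal yellow Ay/a heterozygotes, which carry a dominant agouti mutation in every cell and become obese as adults, and black mice are their lean a/a littermates on the same background, written C56BL/6J in the labels and C57BL/6J in the methods. Mice of all 4 groups had received Antide, a GnRH antagonist that suppresses the ovarian cycle, at 10 μg/g on days 1 and 4, then equine chorionic gonadotropin, which drives follicle growth, at 1 IU/5 g body weight, and the ovaries were collected on day 7. Both the LY and the black mice are therefore a model of a suppressed and restimulated ovary, not of a cycling one.

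White adipocytes store triglyceride and secrete hormones. Leptin reports the size of the fat store to the hypothalamus and limits feeding, adiponectin raises insulin sensitivity, and in mice resistin also comes from adipocytes. Fat pads lie around the mouse ovary, which the methods describe as trimmed before RNA extraction, while some of the same genes, such as Pparg and Lpl, are also used by cells of the follicle and its vessels. In RNA of a whole organ, fewer cells of a type and less RNA per cell cannot be told apart.

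Values are relative intensity units as deposited, with a median of 1.00 on every 180-day array and 1.04 on every 90-day array. The limit of sensitivity given by the methods is 0.2 units, and between 81.4% and 83.4% of the values on an array lay at or above it. The genotype labels were borne out by agouti, the gene that the LY mutation switches on, at 97.0 to 111 units on the 6 LY arrays and 0.170 to 0.369 units on the 6 black arrays. Markers of the ovary were bright on every array, with the granulosa cell gene Inha at 48.4 to 166 units and the oocyte gene Zp3 at 15.1 to 36.5 units. Arrays correlated at 0.970 to 0.987 within a group and at 0.918 to 0.938 between ages. Because 180-day and 90-day ovaries were hybridized in separate sets, a change with age cannot be told apart from a change of set. Fold changes are LY over black from limma, fitted on log2 values with a floor of 0.01 units. They are called at a Benjamini-Hochberg adjusted p under 0.05 over the 31359 probes tested. Raly, a gene that the LY mutation deletes in part, had a log2 difference of −0.81 at 180 days (adjusted p = 0.169). At 90 days it was −0.73 (adjusted p = 0.170). This known difference between the genotypes was thus not called at either age.

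The 8 genes lie on chromosomes 3 (Fabp4 and Car3), 6 (Lep and Pparg), 8 (Retn and Lpl), 11 (Slc2a4) and 16 (Adipoq). Upstream sequence was at hand in the RefSeq table of GRCm38.p6 for 6 of the 10 genes. It is shown for Lep, which followed the other adipocyte hormones only in part in these ovaries. It is also shown for Adipoq and Retn, which had the same order of arrays at 90 days. Each run is the 250 bases before the annotated start of the gene, at chr6:29059971-29060220 for Lep, chr16:23146286-23146535 for Adipoq and chr8:3655520-3655769 for Retn, on the plus strand in every case. Capitals mark matches, on either strand, to the motifs spelled out after the sequences.

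Lep: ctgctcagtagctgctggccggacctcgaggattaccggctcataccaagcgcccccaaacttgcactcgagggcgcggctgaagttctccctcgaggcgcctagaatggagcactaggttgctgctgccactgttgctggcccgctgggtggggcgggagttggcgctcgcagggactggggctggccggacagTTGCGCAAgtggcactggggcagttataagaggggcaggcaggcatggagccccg

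Adipoq: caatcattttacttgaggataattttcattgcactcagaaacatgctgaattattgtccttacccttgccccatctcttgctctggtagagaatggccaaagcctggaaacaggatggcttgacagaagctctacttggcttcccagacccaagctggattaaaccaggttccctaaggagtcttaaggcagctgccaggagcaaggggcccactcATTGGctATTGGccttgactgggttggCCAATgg

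Retn: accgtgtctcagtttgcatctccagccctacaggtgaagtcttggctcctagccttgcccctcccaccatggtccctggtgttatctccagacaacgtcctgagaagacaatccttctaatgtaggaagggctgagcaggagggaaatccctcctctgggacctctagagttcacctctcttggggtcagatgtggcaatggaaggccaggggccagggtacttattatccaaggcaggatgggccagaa

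The motifs searched were TATAAA, the TATA box, CCAAT, TTGCNNAA, a core that C/EBP factors can bind, and AGGTCA, the nuclear receptor half-site, with its DR1 tandem, the form bound by PPARγ with its partner RXR. The Lep window held 1 motif, TTGCGCAA at −55 to −48 from the start, a core that reads as the same motif on both strands. TTGCNNAA occurred in 9.56% of the 32851 windows of the table. The Adipoq window held CCAAT in 3 places, at −34 to −30 and −27 to −23 on the minus strand and at −7 to −3 on the plus strand, a motif in 33.8% of windows. The Retn window held none of them. TATAAA was present in 12.4% of windows, AGGTCA in 14.0% and its tandem in 0.0335%, and none of these was in the 3 windows shown. Only exact strings were searched, so near matches such as the tataag of the Lep window were not marked. These matches describe letters within 250 bases and say nothing of whether a factor was bound.

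Leptin was the only measured member with any array under the limit of sensitivity. The Lep probe read 0.311, 0.224 and 0.443 units in 180-day LY mice, against 0.0019, 0.0679 and 0.0802 units in black mice of that age. All 3 LY arrays lay above 0.2 units and all 3 black arrays below it, with no overlap. At 90 days Lep read 0.878, 0.0431 and 0.420 units in LY mice, against 0.176, 0.0848 and 0.252 units in black mice. The highest and the lowest of these 6 values were both from LY mice. In all, 6 of 12 arrays lay under 0.2 units for Lep, namely black replicates 1, 2 and 3 at 180 days, LY replicate 2 at 90 days and black replicates 1 and 2 at 90 days. No array lay under 0.2 units for any other member.

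By group mean, Lep stood at 0.447 ± 0.418 units in 90-day LY mice, 0.326 ± 0.111 in 180-day LY mice, 0.171 ± 0.0840 in 90-day black mice and 0.0500 ± 0.0421 in 180-day black mice (SD, n = 3 each). Neighbours in this order overlapped in their values except for the black mice of 90 and of 180 days, 5 of whose 6 values were under the limit. At 180 days the fitted log2 difference of Lep was 3.05 (SE 1.06, 95% interval 0.70 to 5.40), with an adjusted p of 0.307 in limma. It did not pass the test. Because every black array was under the limit, the estimate can be stated only as at least 1.56-fold, from the LY geometric mean of 0.313 units over 0.2 units. This bound is itself a point estimate. With all values under 0.2 units set to 0.2, the log2 difference was 0.64 (SE 0.39, adjusted p = 0.54 in limma). The fitted value of 3.05 rests in part on black replicate 1, at 0.0019 units, without which the log2 difference was 2.09. Lep passed the filter on dim probes through its LY groups alone, since neither black group averaged 0.2 units.

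**Figure D1:**
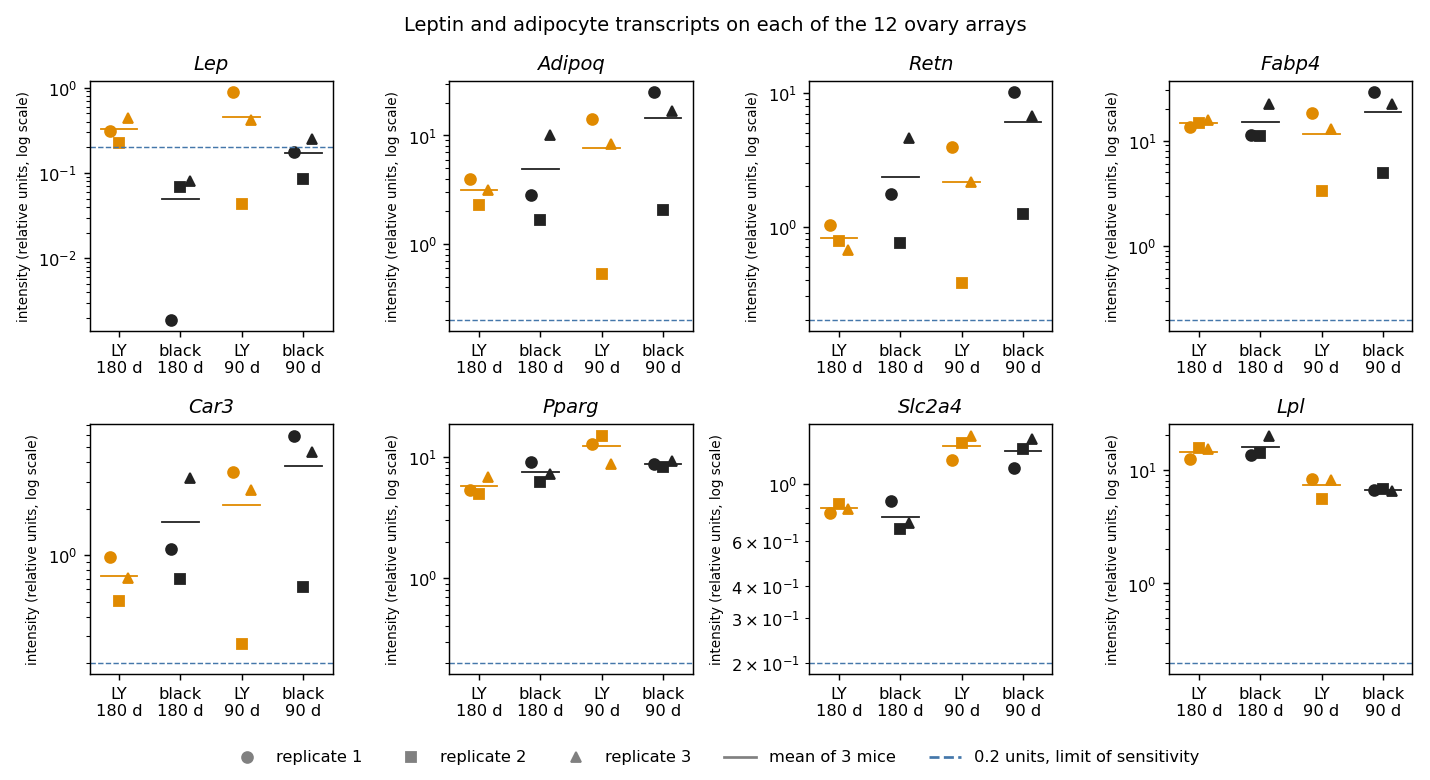
Intensity in relative units (log scale) of the 8 measured members in each of 12 ovaries, by genotype and age; symbols mark replicates, bars the means of 3 mice, and the dashed line the limit of 0.2 units. Lep alone has arrays under the line, 6 of 12, and Adipoq, Retn, Fabp4 and Car3 spread widely within the 90-day groups.

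At 90 days the log2 difference of Lep was 0.69 (SE 1.06, 95% interval −1.66 to 3.04, adjusted p = 0.828 in limma). Without LY replicate 2 it was 1.96, and without LY replicate 1 it was −0.21. The difference between the ages in the genotype effect was 2.36 on the log2 scale (SE 1.50, adjusted p = 0.574) and was not called. With values set to the limit of 0.2 units before log2, that difference was −0.29 (SE 0.55). Over both ages Lep differed by 1.87 (SE 0.75, adjusted p = 0.333), where 2 probes were called (0.00638%).

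None of the 8 measured members was called at 180 days in either direction, in a comparison that called 14 probes, 0.0446% of those tested. None was called at 90 days, where 14 probes were called as well, 0.0446% of those tested, or in the interaction, where 0 probes were called (3799 had an unadjusted p under 0.05). Lep was the 1 member of 8 whose LY values all lay above the black values at 180 days, a pattern that 14.2% of probes showed. At 90 days 0 of 8 members were without overlap, against 16.5% of probes in either direction. The median log2 difference over the 8 members was −0.18 at 180 days and −0.29 at 90 days, beside 0.04 and −0.03 over all 16323 genes tested.

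The secreted hormones adiponectin and resistin were above the limit on all 12 arrays and spread widely between mice of the same group. Adipoq read 4.00, 2.27 and 3.15 units in 180-day LY mice, against 2.81, 1.66 and 10.2 units in black mice. Black replicate 3 was the highest, and the LY values lay between the black ones. At 90 days Adipoq read 14.1, 0.528 and 8.33 units in LY mice, against 24.9, 2.05 and 16.7 units in black mice. Replicate 2 was the lowest of its group in both genotypes, 26.8-fold under the highest in LY mice and 12.2-fold in black mice. Among 30795 probes with a value on every array, 32 (0.104%) spanned as wide a range in 90-day LY mice. The log2 difference of Adipoq was −0.24 at 180 days (95% interval −3.01 to 2.53, adjusted p = 0.960). It was −1.26 at 90 days (95% interval −4.03 to 1.51, adjusted p = 0.714). Both intervals of this fit, with 3 mice per group, span several log2 units and include 0.

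Retn read 1.03, 0.773 and 0.669 units in 180-day LY mice, against 1.75, 0.749 and 4.60 units in black mice. The 90-day values were 3.95, 0.378 and 2.14 units in LY mice, against 10.1, 1.24 and 6.76 units in black mice. At 90 days the order of arrays was that of Adipoq, and at 180 days black replicate 3 was again the highest while the lowest was LY replicate 3, not black replicate 2 as for Adipoq. The log2 difference was −1.17 (SE 0.98, adjusted p = 0.679) at 180 days and −1.57 (SE 0.98, adjusted p = 0.527) at 90 days.

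The fatty acid carrier Fabp4, which adipocytes hold in quantity and macrophages and small vessels also use, was even among 180-day LY mice at 13.3, 14.8 and 15.6 units, against 11.4, 11.0 and 22.1 units in black mice. Black replicate 3 was again the highest. At 90 days Fabp4 read 18.3, 3.31 and 12.9 units in LY mice, against 28.6, 4.90 and 22.1 units in black mice. Car3, a carbonic anhydrase abundant in mouse fat and in skeletal muscle, read 0.977, 0.504 and 0.715 units in 180-day LY mice, against 1.09, 0.699 and 3.14 units in black mice. At 90 days Car3 read 3.45, 0.267 and 2.65 units in LY mice, against 5.95, 0.625 and 4.69 units in black mice. Both genes thus had the array order of Adipoq at 90 days. The log2 differences at 180 and 90 days were 0.05 and −0.66 for Fabp4 (SE 0.71, adjusted p = 0.985 and 0.737) and −0.92 and −0.95 for Car3 (SE 1.06, adjusted p = 0.774 and 0.751). Without LY replicate 2 the 90-day differences turned to 0.20 for Adipoq, 0.07 for Fabp4 and 0.22 for Car3, and without black replicate 3 the 180-day difference of Adipoq turned to 0.51.

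**Figure D2:**
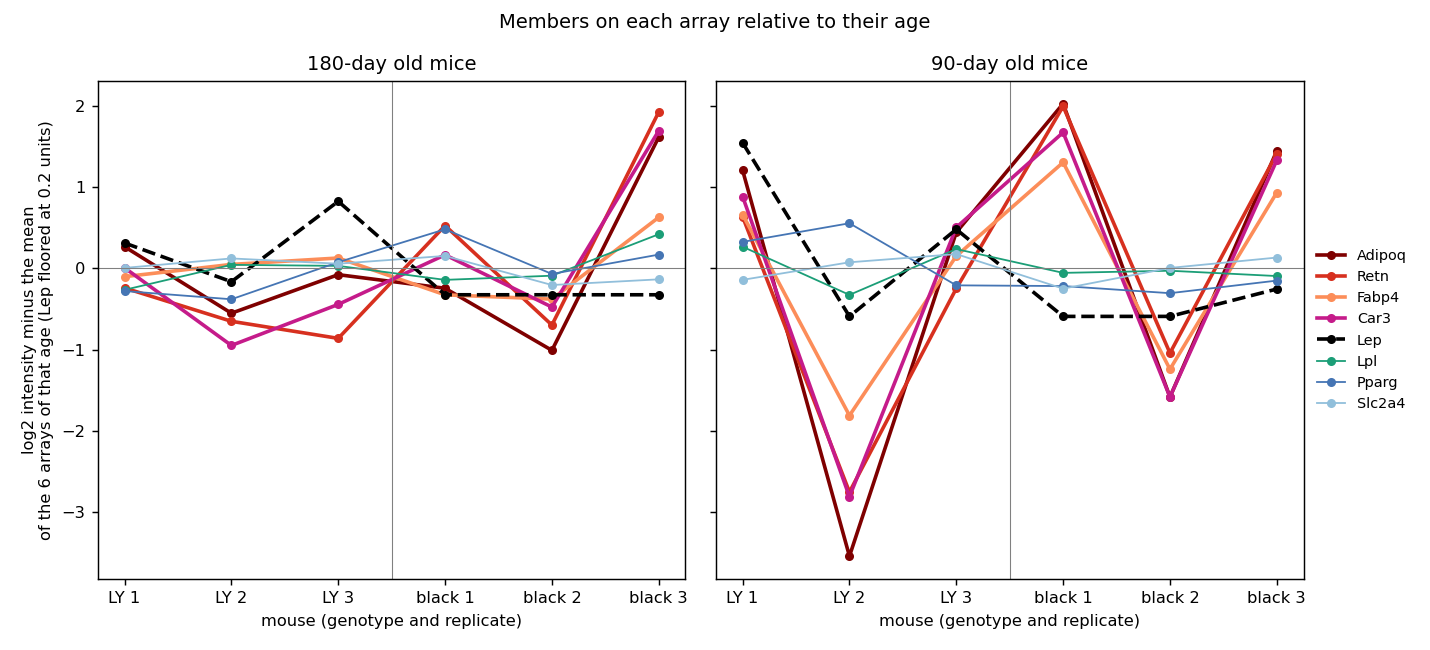
Log2 intensity of each member on each array, relative to the mean of the 6 arrays of that age, with Lep values under 0.2 units set to 0.2; LY mice stand left of black mice. Adipoq, Retn, Fabp4 and Car3 move together from mouse to mouse at 90 days, with LY 2 the lowest. At 180 days they share black 3 as the highest and differ in the order of the others. Pparg and Slc2a4 stay near 0.

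Adipoq, Retn, Fabp4 and Car3 varied together across the mice at 90 days, and at 180 days they shared mainly their highest array. At 90 days all 4 had the same order of arrays, from the highest black 1, black 3, LY 1, LY 3, black 2 to the lowest LY 2. At 180 days all 4 were highest in black 3, and the order of the other arrays differed. With the mean of each age removed, the 5 genes of 16034 most like Adipoq over the 12 arrays were Car3 (Pearson r = 0.976), Fabp4 (0.966), Retn (0.937), Orm1 (0.911), an acute-phase plasma protein, and Cyp2e1 (0.874), a cytochrome P450 of liver and fat. Only 4 genes reached r = 0.9. These correlations describe the arrays, which share a scale and an array set within each age, and the 90-day arrays carry most of the spread. Within the 6 arrays of 180 days the r of Adipoq was 0.902 with Car3, 0.854 with Fabp4 and 0.841 with Retn, and within the 6 of 90 days it was 0.996, 0.987 and 0.975. The 180-day r values include black 3, and r without that array was not computed. At 180 days Adipoq had the same rank as Car3 on 1 of 6 arrays, as Fabp4 on 2 and as Retn on 1.

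Orm1 and Cyp2e1, which are not among the members, had the same low array at 90 days. Orm1 read 1.37, 0.209 and 0.589 units in 90-day LY mice, against 0.947, 0.361 and 1.16 units in black mice. Cyp2e1 read 2.29, 0.901 and 2.55 units in 90-day LY mice, against 7.29, 1.38 and 7.28 units in black mice. In both genotypes replicate 2 was the lowest for both genes.

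Leptin followed this group only in part. The r of Lep with Adipoq was 0.457 over the 12 arrays, rank 704 of 16034 genes, with 0.055 among the 180-day arrays and 0.773 among the 90-day arrays, with 6 of its 12 values under the limit. At 180 days black replicate 3 had the highest Adipoq of its age and 0.0802 units of Lep, whereas LY replicate 3 had 3.15 units of Adipoq and the highest Lep of its age, 0.443 units. At 90 days LY replicate 2, lowest of all arrays for Adipoq, Retn, Fabp4 and Car3, was also the lowest of its age for Lep.

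A difference of Lep from Adipoq on each array was taken after these values had been seen. On the log2 scale it was −3.69, −3.35 and −2.83 in 180-day LY mice, against −8.13, −4.61 and −6.99 in black mice. At 90 days it was −4.01, −3.61 and −4.31 in LY mice, against −7.14, −4.59 and −6.05 in black mice. The LY values lay above the black values at both ages. This rests on Lep values under the limit, since with those set to 0.2 units the genotypes overlapped at both ages, at −3.69 to −2.83 in LY mice against −5.67 to −3.04 in black mice at 180 days, and −4.31 to −1.34 in LY mice against −6.90 to −3.30 in black mice at 90 days. With the log2 value of Adipoq as a covariate in limma, also added afterwards, the log2 difference of Lep was 3.20 (SE 0.72, adjusted p = 0.186) at 180 days and 1.51 (SE 0.76, adjusted p = 0.439) at 90 days, and it was not called at either age.

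**Figure D3:**
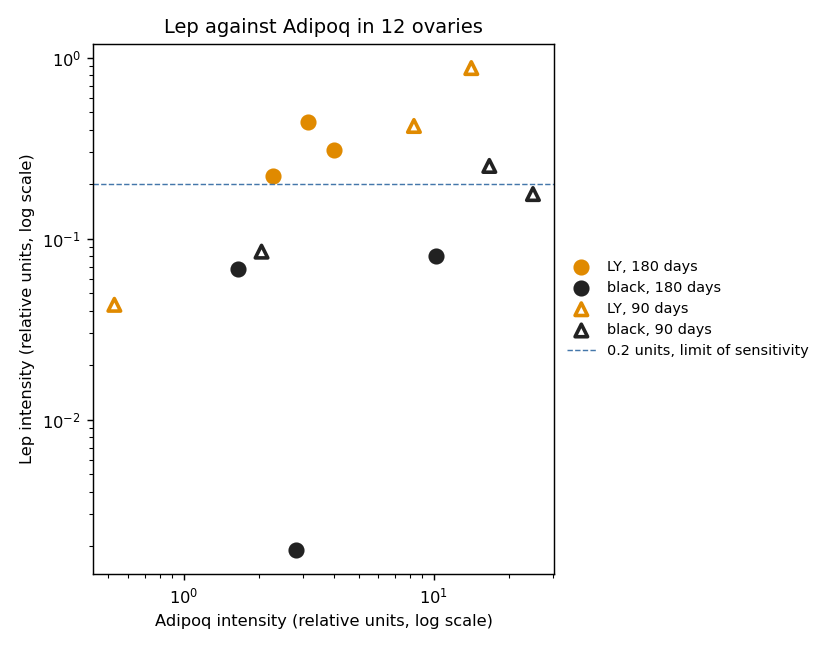
Lep against Adipoq intensity (both in relative units, log scales) in the 12 ovaries, with LY mice in orange, black mice in black and the limit of 0.2 units dashed. The 5 LY points above the limit for Lep have Adipoq values of 2.27 to 14.1 units, and 1 of 6 black points lies above it, at an Adipoq value of 16.7 units.

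The genes most like Lep by the same measure were Tmem132b (r = 0.891), Tatdn2 (0.867), Habp2 (0.854), Slc25a51 (0.853) and Samd8 (0.834). Tmem132b, Tatdn2 and Habp2 were under 0.2 units on 8, 4 and 7 of the 12 arrays. Samd8, well above the limit, read 1.55, 1.57 and 1.70 units in 180-day LY mice, against 1.36, 1.30 and 1.43 units in black mice, a log2 difference of 0.24 (SE 0.09, adjusted p = 0.338). No member was among these 5, and the member closest to Lep was Fabp4, at r = 0.510 and rank 828.

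Pparg, the nuclear receptor that directs adipocyte differentiation and is also made by granulosa cells, had r = −0.273 with Adipoq. It read 5.33, 4.97 and 6.81 units in 180-day LY mice, against 9.01, 6.16 and 7.27 units in black mice. At 90 days it read 12.7, 14.9 and 8.79 units in LY mice, against 8.73, 8.22 and 9.15 units in black mice. The LY mean was below the black mean at 180 days and above it at 90 days, with overlap at both ages. The log2 difference was −0.39 (SE 0.20, adjusted p = 0.485) at 180 days and 0.45 (SE 0.20, adjusted p = 0.378) at 90 days, and the difference between them, −0.84 (SE 0.29), had an adjusted p of 0.272 in limma. It was not called.

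Slc2a4, the insulin-responsive glucose transporter GLUT4 of fat and muscle, was even within groups. Its brighter probe read 0.771, 0.836 and 0.799 units in 180-day LY mice, against 0.854, 0.666 and 0.699 units in black mice. At 90 days it read 1.23, 1.43 and 1.54 units in LY mice, against 1.15, 1.37 and 1.49 units in black mice. The log2 difference was 0.12 (95% interval −0.17 to 0.42) at 180 days and 0.07 (95% interval −0.22 to 0.37) at 90 days. The dimmer probe differed in sign from it, at −0.21 and −0.03, and neither probe was called (adjusted p = 0.613 to 0.966).

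Lpl, the lipase that releases fatty acids from circulating lipoproteins, read 12.4, 15.4 and 15.2 units in 180-day LY mice, against 13.5, 14.0 and 19.9 units in black mice. At 90 days it read 8.34, 5.53 and 8.18 units in LY mice, against 6.68, 6.80 and 6.50 units in black mice. LY replicate 2 was again the lowest array of 90 days and black replicate 3 the highest of 180 days. At 90 days Lpl was highest in LY replicate 1, not in black replicate 1 as for Adipoq, and its r with Adipoq was 0.553. The log2 difference was −0.12 (95% interval −0.54 to 0.29) at 180 days and 0.12 (95% interval −0.29 to 0.53) at 90 days.

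**Figure D4:**
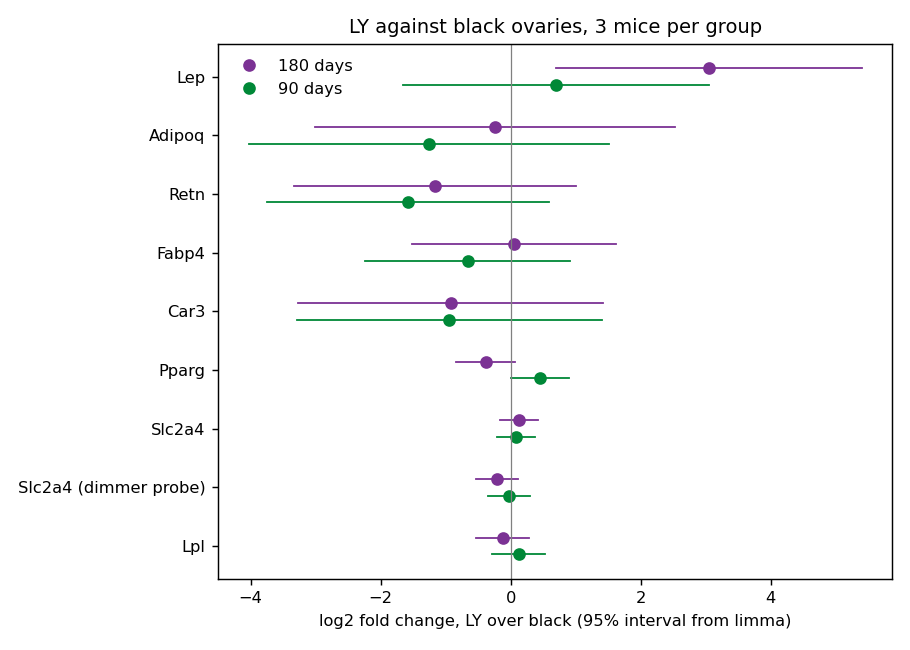
Log2 fold change of LY over black ovaries for each member probe at 180 and 90 days, with 95% intervals from limma (3 mice per group). Intervals of Lep, Adipoq, Retn, Fabp4 and Car3 span several log2 units, those of Pparg, Slc2a4 and Lpl stay under 1 unit on either side, and only that of Lep at 180 days excludes 0, with an adjusted p of 0.307.

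For 2 of 8 members, Slc2a4 and Lpl, the 6 arrays of 180 days did not overlap the 6 of 90 days, as was the case for 36.6% of probes. Lpl lay between 12.4 and 19.9 units on the 180-day arrays and between 5.53 and 8.34 units on the 90-day arrays. Slc2a4 lay between 0.666 and 0.854 units on the 180-day arrays and between 1.15 and 1.54 units on the 90-day arrays. The values of the other 6 members overlapped between ages. No test is given for age, which cannot be told apart from the array set.

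Other adipocyte genes were read from lists. Of the measured genes for adipocyte transcription (5 tested), lipid droplets and lipolysis (8), fatty acid uptake and triglyceride synthesis (8), other secreted proteins (8) and surface and insulin response (7), 0 were called in either direction at 180 or at 90 days. Their list medians lay between −0.11 and 0.12 at 180 days and between −0.28 and 0.00 at 90 days. Closest to the threshold was Agt, which encodes angiotensinogen, at 4.45, 4.28 and 4.40 units in 180-day LY mice, against 7.97, 8.44 and 7.09 units in black mice (log2 difference −0.84). Its adjusted p was 0.0512 in limma. Apln, the peptide hormone apelin, read 6.76, 10.1 and 4.43 units in 180-day LY mice, against 3.40, 3.28 and 3.03 units in black mice (log2 difference 1.06, adjusted p = 0.159). At 90 days it read 5.56, 4.32 and 6.22 units in LY mice, against 8.98, 10.1 and 8.53 units in black mice (log2 difference −0.79, adjusted p = 0.225). Its groups were thus without overlap at both ages, in opposite directions. Of all probes, 14.2% were higher in LY without overlap at 180 days and 9.56% lower at 90 days. The share with both was not counted. Of the 8 genes tested in its list, 4 were higher and 2 lower without overlap at 180 days, and 3 lower at 90 days. The share of all probes lower in LY without overlap at 180 days was 8.36%. The remaining adipocyte lists, in the order above, had 1, 2, 0 and 0 higher and 0, 0, 0 and 2 lower at 180 days. At 90 days they had 0, 1, 0 and 0 higher and 2, 1, 3 and 0 lower. In the other adipocyte lists the smallest p at 180 days belonged to Mgll, a monoglyceride lipase (log2 difference 0.46, adjusted p = 0.233), Nnat, or neuronatin (−0.50, adjusted p = 0.264), Rxra, the partner of PPARγ (0.27, adjusted p = 0.432), and Dgat1, which completes triglyceride synthesis (0.30, adjusted p = 0.464). Dgat1 had a log2 difference of −0.80 at 90 days (adjusted p = 0.0822).

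Over the 36 tested genes of these 5 lists r with Adipoq ran from −0.451 to 0.801 with a median of 0.126, and it was at least 0.5 for 6 of them and below 0 for 11. Among all 16034 genes compared with Adipoq, Lpl at r = 0.553 ranked 294 and Lep at r = 0.457 ranked 704. The genes named next were chosen after their values were seen, the first 6 for their r. Adig, an adipocyte protein that aids leptin secretion in mice, had r = 0.801 with Adipoq, Pck1, which supplies glycerol for triglyceride, 0.783, Thrsp, a factor for lipogenesis, 0.748, Hp, or haptoglobin, 0.733, Plin4, a lipid droplet coat protein, 0.574, and Rbp4, the plasma carrier of retinol, 0.558. At 90 days Plin4 read 1.36, 1.07 and 3.46 units in LY mice, against 9.48, 4.26 and 8.94 units in black mice, a log2 difference of −2.05 (SE 0.49, adjusted p = 0.130), while at 180 days the difference was 0.54 (adjusted p = 0.704). Hp read 2.65, 0.416 and 2.84 units in 90-day LY mice, against 5.51, 3.85 and 4.40 units in black mice (log2 difference −1.63, adjusted p = 0.273), with a difference of 0.51 at 180 days (adjusted p = 0.773). For both genes the groups did not overlap at 90 days, a pattern, lower in LY, of 9.56% of probes. Cidec, a lipid droplet protein of white fat, had r = 0.198 and spanned 5.43 to 7.44 units over all 12 arrays. Lipe, the hormone-sensitive lipase, was under 0.2 units on all 12.

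**Figure D5:**
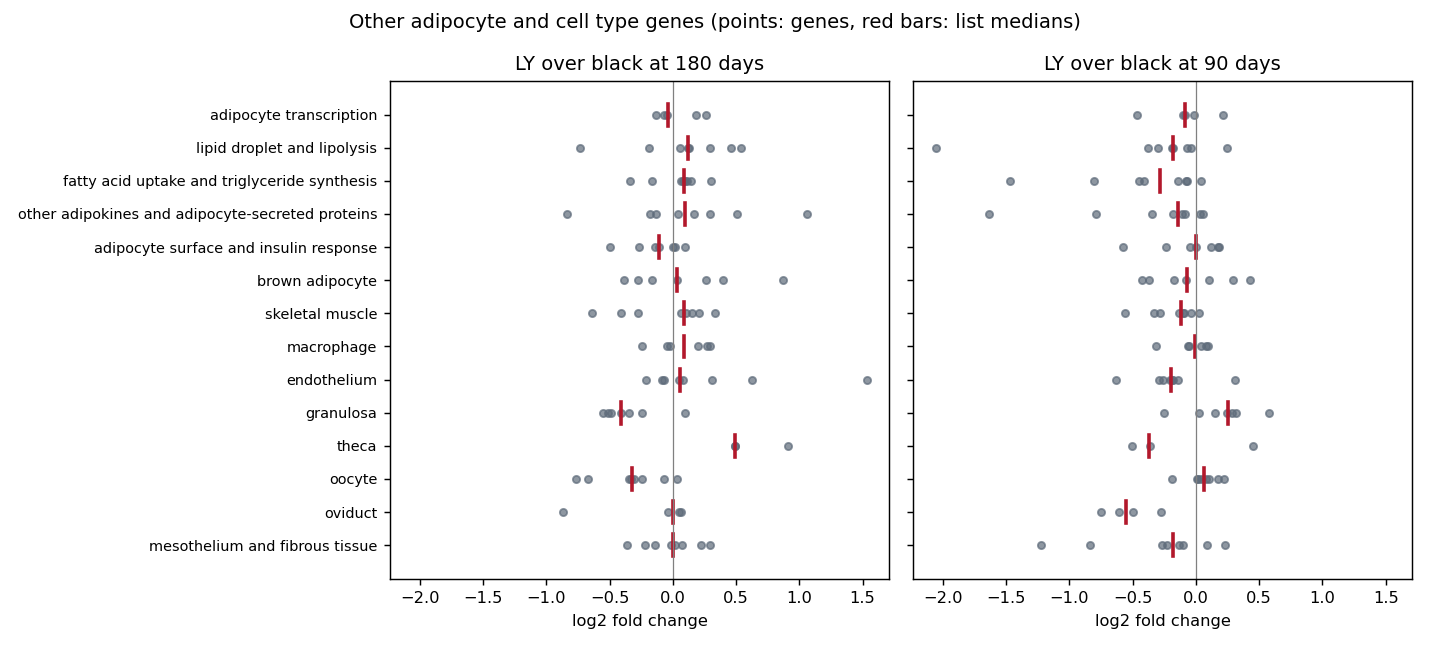
Log2 fold changes of LY over black ovaries at 180 days (left) and 90 days (right) for further adipocyte genes and for markers of other cells, 1 point per gene with list medians in red. No gene passed the test, and the adipocyte lists have medians from −0.11 to 0.12 at 180 days.

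Markers of other cells that share these genes were given beside them. Of 10 skeletal muscle genes measured, Myh1 was under 0.2 units on all 12 arrays, Ckm, the muscle creatine kinase, was under it on 6, and their summed level was 7.15 to 7.66 units in 180-day LY mice, 6.92 to 7.32 in 180-day black mice, 5.38 to 6.24 in 90-day LY mice and 5.71 to 8.65 in 90-day black mice. Over the 8 muscle genes tested r with Adipoq ran from −0.028 to 0.518, with a median of 0.233 and Ckm the highest. The smallest p at 180 days in this list was that of Mb, or myoglobin (log2 difference 0.34, adjusted p = 0.369). Of 8 brown adipocyte genes measured, Ucp1, which defines the type, was under 0.2 units on 11 arrays, and the sums were 8.70 to 10.0 units in 180-day LY mice, 8.77 to 11.3 in 180-day black mice, 7.27 to 7.74 in 90-day LY mice and 8.19 to 8.67 in 90-day black mice. Dio2, a deiodinase, had the smallest p of that list at 180 days (log2 difference 0.40, adjusted p = 0.311). The 6 macrophage genes summed to 35.4 to 62.1 units in 180-day LY mice, 40.3 to 61.2 in 180-day black mice, 26.6 to 39.6 in 90-day LY mice and 25.3 to 37.6 in 90-day black mice. The 8 endothelial genes summed to 55.2 to 58.4 units in 180-day LY mice, 53.9 to 56.8 in 180-day black mice, 50.8 to 61.4 in 90-day LY mice and 59.9 to 67.9 in 90-day black mice. The macrophage sums rest mostly on Lyz2, at 28.8, 54.4 and 44.5 units in 180-day LY mice, and Cd163 lacked a value on part of the 90-day arrays. The brown adipocyte sums include Cox7a1, at 3.01 to 7.01 units over the 12 arrays. A sum is therefore not a level of a cell type. The smallest p at 180 days was that of Cd163 among macrophage genes (log2 difference 0.27, adjusted p = 0.451) and Emcn among endothelial genes (0.31, adjusted p = 0.329). No gene of these lists was called at either age. None was called in the lists for granulosa cells (7 tested), theca (3), oocytes (8), oviduct (4) or mesothelium and fibrous tissue (8). The medians of these further lists, in that order, were −0.41, 0.49, −0.32, 0.00 and 0.00 at 180 days. At 90 days they were 0.25, −0.37, 0.06, −0.55 and −0.18. Whether the adipocyte transcripts came from cells within the ovary or from fat at its surface was not tested.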

How the data were processed

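One ovary per mouse was hybridized to a one-colour CodeLink mouse genome array (12 arrays, 4 groups of 3 mice, separate animals by the methods). The authors corrected background with the CodeLink software and used GeneSpring to bring the slides to a common median, and the deposited values are linear relative intensity units, not centred by gene. The number of arrays limits the precision. Groups were taken from the sample labels. Values were divided by the array median and floored at 0.01 units before log2. limma 3.58.1 in R 4.3.3 fitted 4 group means to the 31359 of 36227 probes whose mean reached 0.2 units in any group (residual degrees of freedom 8, prior 2.46), with Benjamini-Hochberg adjustment over all probes tested and a threshold of 0.05. Adjusted p-values, standard errors and 95% intervals are from this fit unless another is named. The code was tested on simulated data. Probe names come from the platform annotation, in which 681 probes have several genes and 13931 none. A fold against a group wholly under 0.2 units was computed against 0.2 as a bound. Likeness is Pearson r on log2 values with the age mean removed, over genes with a value on every array. The text names all members, the 5 genes most like Lep and Adipoq, agouti and Raly. It also names the 1 or 2 genes with the smallest p at 180 days in each adipocyte, brown adipocyte, muscle, macrophage and endothelial list. The naming rule allowed up to 4 genes of every list, so this selection is narrower. Adig, Pck1, Thrsp, Hp, Plin4, Rbp4, Cidec, Lipe, Ckm, Myh1, Ucp1, Inha, Zp3, Lyz2 and Cox7a1 were named outside this selection, after their values were seen. The members, the lists, the motifs and the naming rule were chosen with earlier results of these data known. Alternatives were a floor of 0.2 units, a pseudocount of 0.1, no filter, quantile normalization, values as deposited, an intensity trend, array weights, fits on 1 age, the methods' t-test, a replicate block and leaving out each array. Lepr, Cfd and Plin1 are not analysed here.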

Additional observations from a re-analysis of the deposited data

How the results depend on the processing

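No member passed the adjusted threshold under any of 475 member values from the alternatives (lowest adjusted p 0.130, for the Pparg interaction without 1 array). The methods' t-test without adjustment put Lep at 180 days at p = 0.0386, a normal-theory value that an exact permutation test of 3 against 3 mice could not reach. Lep at 180 days ran from 0.64 (floor of 0.2 units) to 3.20 on the log2 scale and from 2.09 to 3.59 when single arrays were left out.

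Directions turned under few settings. With array quality weights the log2 differences were −0.21 for Lep, −0.0040 for Lpl and 0.014 for the dimmer Slc2a4 probe at 90 days, and −0.0074 for Fabp4 at 180 days. With a floor of 0.2 units the Lep interaction was −0.29. With Adipoq as a covariate, chosen after seeing the data, the 90-day differences were 0.025 for Fabp4 and 0.12 for Car3. Leaving out single arrays gave −0.21 to 1.96 for Lep at 90 days, −0.80 to 0.51 for Adipoq at 180 days and −2.36 to 0.20 at 90 days, −0.13 to 0.38 for Fabp4 at 180 days and −1.45 to 0.075 at 90 days, −1.97 to 0.22 for Car3 at 90 days, −0.032 to 0.16 and −0.14 to 0.10 for the brighter and dimmer Slc2a4 probes at 90 days, and −0.23 to 0.054 for Lpl at 180 days. The cause was not tested.

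The count of probes called moved with most settings. At 180 days, beside 14, it was 52 with the floor of 0.2 units, 33 with the pseudocount, 1 without a filter, 111 with an intensity trend, 157 with array weights, 2 on 1 age only, 0 with the methods' t-test after Benjamini-Hochberg and 4202 before it, 1 with the Adipoq covariate, and 1 to 21 without single arrays. At 90 days, beside 14, the same settings gave, in that order, 132, 25, 4, 200, 3, 2, 1, 2799, 3 and 1 to 66. The interaction, beside 0, gave 18 with the floor of 0.2 units, 21 with the pseudocount, 198 with a trend, 2 with array weights, 2 with quantile normalization and 0 to 35 without single arrays. Over both ages, beside 2, it gave 56 with the floor of 0.2 units, 14 with the pseudocount, 1 without a filter, 95 with a trend, 10 with array weights and 1 to 6 without single arrays.

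Replicate numbers are shared between genotypes. In their deviations, same-numbered LY and black arrays correlated at −0.003, −0.072 and −0.056 at 180 days and at 0.148, 0.073 and 0.051 at 90 days. Arrays of different numbers correlated at −0.0108 to 0.0641 at 180 days and at −0.16 to 0.115 at 90 days. The labels do not say whether the numbers mark pairs, and the main fit took none. A fit with the replicate block called 2 probes at 180 days, 1 at 90 days, 0 in the interaction and 1 over both ages. It called no member. At 90 days its SEs were 0.45 for Adipoq, 0.48 for Retn, 0.18 for Fabp4 and 0.36 for Car3. The main fit gave 1.25, 0.98, 0.71 and 1.06. Under the block the limma p-values of these 4 genes were 0.030, 0.015, 0.0089 and 0.036 unadjusted. Adjusted, they were 0.380, 0.338, 0.310 and 0.391. The precision for these genes thus depends on whether the numbers mark pairs.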
